A study of Mus musculus with 8 samples.

Results

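The genes described here are 10 of the Notch signalling pathway in mouse cerebral cortex RNA: the receptors Notch1 and Notch2, the ligands Dll1, Dll3 and Jag1, and the effectors Hes1, Hes5, Hey1, Hey2 and Nrarp. They were found as every probe set whose platform annotation names 1 of these genes, which gave 16 of the 45101 probe sets on the array and 10 of the 18194 genes they name. No probe set with several gene symbols held a member. Total RNA labelled as brain, cerebral cortex, was hybridised to 8 Affymetrix arrays in 4 groups of 2, given vehicle, FGF2 alone, FGF2 plus U0126 (FGF2+U0126) or FGF2 plus SB202190 (FGF2+SB202190). The title of the study names an astroglial programme elicited by FGF2, fibroblast growth factor-2, which drives division of glia and of progenitors. U0126 blocks MEK, the kinase upstream of ERK, whereas SB202190 blocks the stress-activated kinase p38. Every group other than vehicle received FGF2, and no group received an inhibitor alone. Strain, age, doses, times, the solvent, and whether cultures or tissue gave the RNA were not stated in these sources. The second FGF2+SB202190 sample carries another word for its type of treatment than all other samples, with the same agents, and was kept in its group. Nothing in the labels says that the 2 samples of a group were separate cultures or animals. The spread behind every p-value is that between these samples and may be purely technical.

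Notch receptors are cut after they bind a Delta or Jagged ligand on a neighbouring cell, and the freed intracellular part joins the DNA-binding protein RBPJ to switch on target genes. The best known targets are the Hes and Hey genes, which encode basic helix-loop-helix repressors, and Nrarp, which encodes a feedback inhibitor of the pathway. In the developing cortex Notch signalling holds neural progenitors back from neuronal differentiation and favours the glial fate, and astrocytes keep expressing receptors and effectors.

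Promoter windows of 250 bases before a listed start (RefSeq, GRCm38.p6) were held for 8 of the 10 genes, in 9 windows because Dll1 has 2, and not for Hes1 and Hey1. They are shown because the effectors are the genes whose promoters RBPJ is known to bind. The letters TGGGAA, the core of RBPJ sites, were searched on both strands and occurred in 2 of the 9 windows, those of Hes5 and Hey2, against 21.6% of the 32851 windows of that length. Hes5 held 2 matches, on opposite strands, which begin 226 and 82 bases before the listed start. That start lies inside the span annotated for Hes5, and so do both matches, downstream of the span's first base. Stretches of 30 bases around each are printed 5′ to 3′ on the gene's strand, with the match in capitals. Their positions are chr4:154960685-154960714 and chr4:154960829-154960858 on the plus strand.
Hes5, far match: agggcgagcgcgTTCCCAcagcccggacat
Hes5, near match: ggccgccgagtgTGGGAAcggccgcggcgc
The Hey2 window, chr10:30842784-30843033 on the minus strand, held 1 match, 207 bases before the start. That of Jag1, chr2:137116521-137116770 on the minus strand, held none and is shown for comparison, as the ligand that rose with FGF2.
Hey2: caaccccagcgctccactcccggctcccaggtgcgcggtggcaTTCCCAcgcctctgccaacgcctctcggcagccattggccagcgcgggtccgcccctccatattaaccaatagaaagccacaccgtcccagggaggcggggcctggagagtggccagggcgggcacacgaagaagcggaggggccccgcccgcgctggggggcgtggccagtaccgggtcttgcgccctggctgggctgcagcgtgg
Jag1: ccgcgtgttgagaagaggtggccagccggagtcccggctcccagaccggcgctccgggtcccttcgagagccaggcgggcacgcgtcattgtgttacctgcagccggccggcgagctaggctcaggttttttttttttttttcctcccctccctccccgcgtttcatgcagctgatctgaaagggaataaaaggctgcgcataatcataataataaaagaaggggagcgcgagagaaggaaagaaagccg
The N-box CACNAG, a sequence bound by Hes proteins, was searched on both strands too and occurred in 3 windows, those of Notch1, Notch2 and Nrarp, against 36.7% of all windows. The E-box CACGTG occurred only in the Nrarp window, against 6.02% of all windows. These matches do not overlap with TGGGAA in any window of the 10 genes. A match is a string of letters and not a measured binding site.

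Signals are the deposited intensities on a linear scale, and changes are log2 changes ± SE with 2 arrays in each group. A gene was called when its adjusted p was under 0.05 across the 13174 genes tested. Levels of different probe sets cannot be compared, since each binds with its own strength, but their rank among all 45101 probe sets shows where noise matters. By mean signal, Notch2 was above 89.6% of the probe sets, Jag1 above 88.1%, Hey1 above 85.3%, Notch1 above 81.4% and Hes1 above 80.5%. Nrarp and Dll3 lay near the middle, above 56.3% and 54.8%. Dll1, Hes5 and Hey2 were close to the limit below which genes were left out, a mean log2 signal of 3.83. Their means were 3.90 for Dll1 and 3.94 for Hes5, just inside it, and 3.77 for Hey2, just outside. Thus 9 of the 10 genes and 14 of the 16 probe sets entered the tests.

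Arrays of a group correlated at 0.980 to 0.984 and arrays of different groups at 0.947 to 0.981 across the genes tested, and the median signal of an array lay between 22.3 and 27.8. FGF2 replicate 2 stood apart in the spiked control transcripts: cre had a signal of 11087, where the remaining arrays had 8328 to 8988, and bioB one of 314, where they had 209 to 260. Values without it are given with each result that it decides, and without it Hes1, Jag1, Notch1 and Notch2 kept their calls with FGF2 against vehicle. The 3' to 5' ratio of Actb, a sign of RNA quality, was 1.28 and 1.26 on the U0126 arrays and 1.31 to 1.41 on the others. That of Gapdh did not set the U0126 arrays apart, at 0.745 and 0.758 against 0.697 to 0.777 on the others. The part of RNA quality in the U0126 results was not tested.

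**Figure D1:**
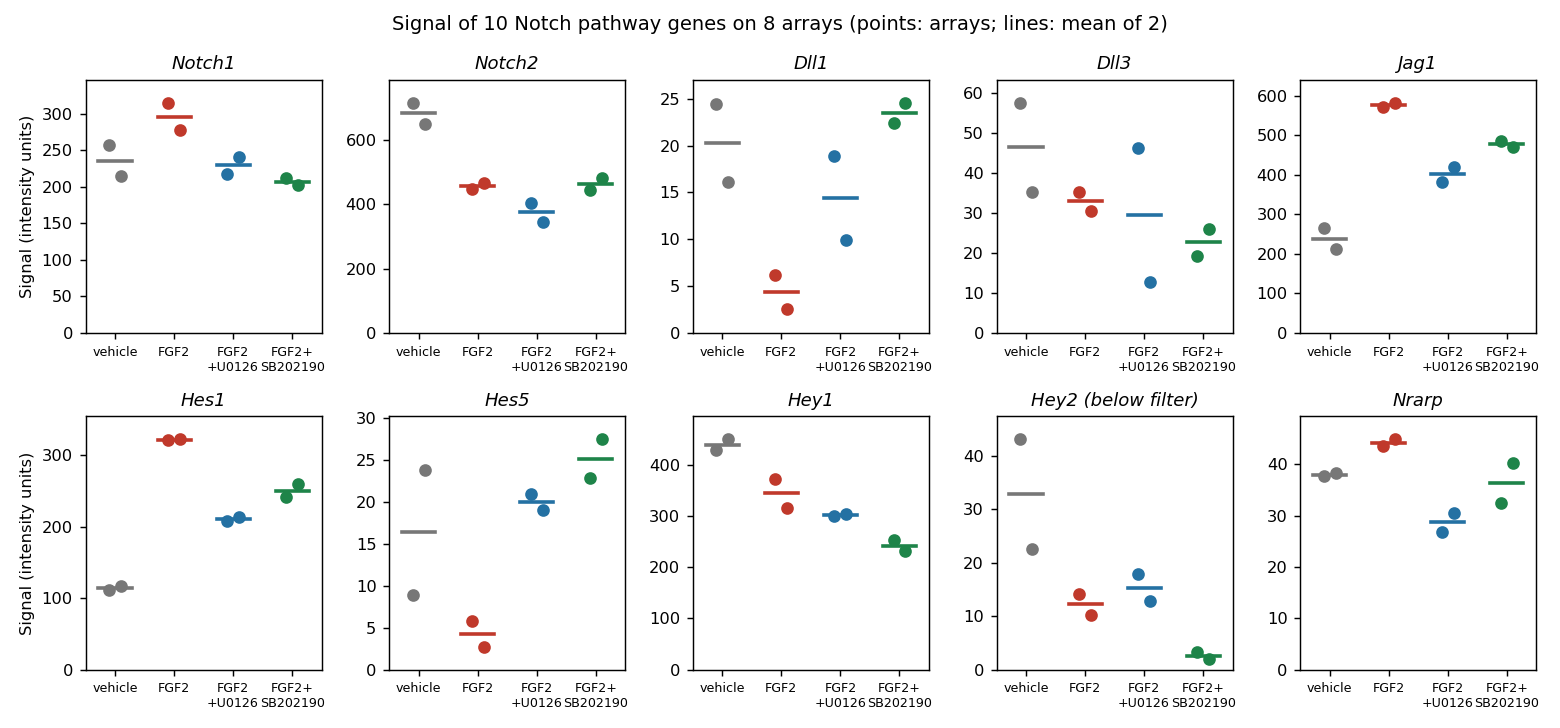
Signal of each gene on the 8 arrays, in linear intensity units, with the 4 groups on the x axis; points are arrays and lines are means of 2, and each panel has its own scale. Hes1 and Jag1 are lowest with vehicle and highest with FGF2, Notch2 and Hey1 are highest with vehicle, and Dll1 and Hes5 are lowest with FGF2.

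FGF2 against vehicle asks how the pathway's genes stood after the growth factor. Hes1 and Jag1 rose to 2.82 and 2.42 times their vehicle signal, and Notch1 rose by less. Notch2, Hey1 and Dll1 fell. In all, 6 of the 9 genes tested were called, 3 higher and 3 lower, where 37.9% of all genes tested were called, 18.9% higher and 19.0% lower. The count includes Dll1, whose FGF2 arrays lay under the filter's signal of 12.4, as did those of Hes5, so these genes entered the tests only through the groups where they are brighter. Without both, a choice made after seeing the data, 5 of 7 were called, 3 higher and 2 lower. The median was -0.28 over the 9 genes and 0.34 over the 7, against -0.0039 for all genes. The groups' signals did not overlap for any of the 9 genes, which was so for 69.1% of all genes tested.

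Of the effectors, Hes1, a repressor that keeps progenitors undifferentiated, had signals of 111 and 117 with vehicle and of 321 and 322 with FGF2. The arrays of a group lay within a few percent of each other and far from those of the other group. The log2 change was 1.52 ± 0.11 (adjusted p = 1.92e-07). Hey1, another repressor of the same family, gave 428 and 449 with vehicle and 373 and 316 with FGF2, so that it fell while Hes1 rose. Its change was -0.36 ± 0.10 (adjusted p = 0.0105). This call was lost without vehicle replicate 2 (-0.34, adjusted p = 0.0630), without FGF2 replicate 2 (-0.25, adjusted p = 0.132) and with median centring in place of quantile normalization (-0.15, adjusted p = 0.306). Hes5, a target expressed in neural progenitors, was dim and uneven with vehicle, at 8.94 and 23.8, and lay at 5.88 and 2.74 with FGF2. Its change of -1.31 ± 0.57 did not pass (adjusted p = 0.0904) and passed without vehicle replicate 1 (-1.97, adjusted p = 0.0280). It was -0.55 at a pseudocount of 16. Nrarp stood at 37.7 and 38.3 with vehicle and 43.5 and 44.8 with FGF2. The groups did not overlap, but the change of 0.37 ± 0.27 did not pass (adjusted p = 0.313).

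Of the ligands, Jag1, the Jagged ligand of astrocytes and vessels, had signals of 266 and 211 with vehicle and 571 and 582 with FGF2. Its lower FGF2 array was more than double its higher vehicle array, and the log2 change was 1.28 ± 0.10 (adjusted p = 7.05e-07). Dll1, a Delta ligand of differentiating cells, moved the opposite way, from 24.5 and 16.2 with vehicle to 6.25 and 2.60 with FGF2. The change was -1.67 ± 0.55 (adjusted p = 0.0272) at the pseudocount of 1.77, added before the logarithm, and -0.71 at 16. The call was lost without FGF2 replicate 2 (-1.24) and with only the arrays of the comparison in the fit (-1.67, adjusted p = 0.0832). Dll1 passed the filter in only 5 of the fits that left out 1 array, so the others could not test the call. Dll3, a Delta relative that acts inside the cell, was at 57.5 and 35.3 with vehicle and at 35.3 and 30.6 with FGF2. The lower vehicle array and the higher FGF2 array were nearly equal, and the change of -0.28 ± 0.45 did not pass (adjusted p = 0.667).

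The receptors were called in opposite directions. Notch2 fell from 715 and 650 with vehicle to 448 and 465 with FGF2, a change of -0.60 ± 0.10 (adjusted p = 2.23e-04). Notch1 was at 257 and 214 with vehicle and at 315 and 277 with FGF2, where the nearest arrays of the groups were closer to each other than the arrays within either group. The change was 0.34 ± 0.12 (adjusted p = 0.0333). It was lost without vehicle replicate 2 (0.22, adjusted p = 0.236), without FGF2 replicate 1 (0.25, adjusted p = 0.228) and with the mean of its probe sets (0.08, adjusted p = 0.638).

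**Figure D2:**
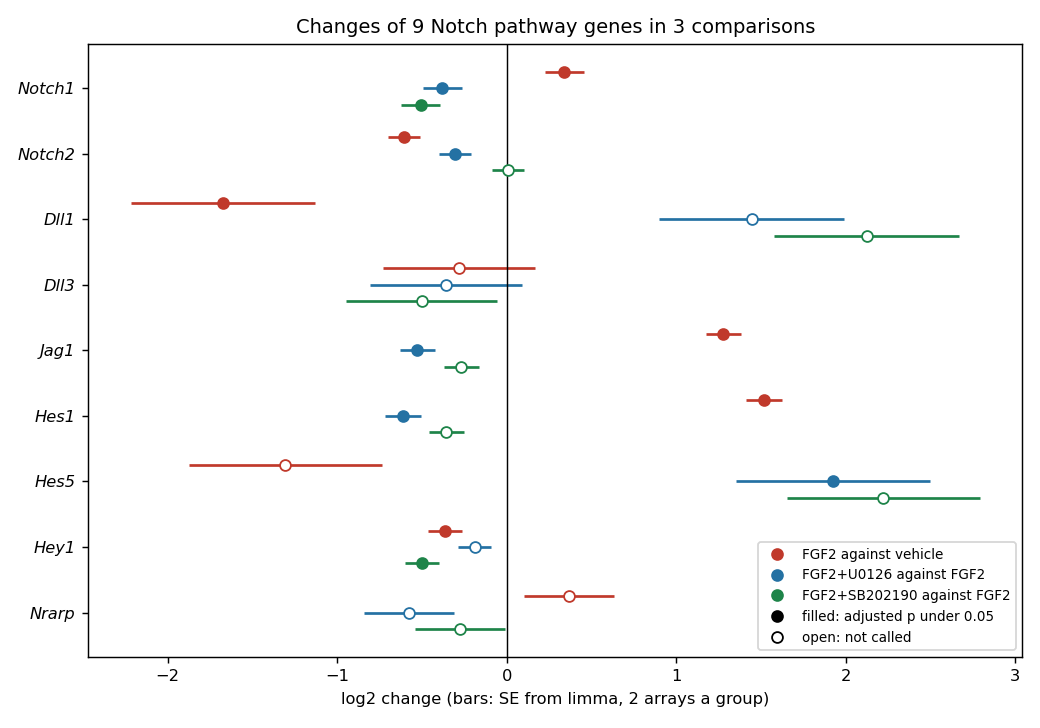
Log2 changes of the 9 genes tested, with bars for the SE from limma (2 arrays a group), in FGF2 against vehicle and in each inhibitor with FGF2 against FGF2 alone; filled points had an adjusted p under 0.05. Hes1 and Jag1 are far above 0 with FGF2 and below 0 in both inhibitor comparisons, while Dll1 and Hes5 have the widest bars.

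Markers of cell types moved with the groups as well. In bulk samples fewer cells of a type and less RNA per cell cannot be told apart. All 11 astrocyte markers listed were above the filter and all 11 were called lower with FGF2, beside 19.0% of all genes tested. Their summed signal was 28254 to 28831 with vehicle and 16142 to 16253 with FGF2. It was 19383 to 19754 with U0126 added and 15271 to 15484 with SB202190 added. Endothelial markers, relevant to Jag1, Notch1 and the Hey genes, which vessels express too, were above the filter for 4 of 10. Their sum was 208 to 211 with vehicle, 248 to 263 with FGF2, 177 to 180 with U0126 and 192 to 207 with SB202190, and the members went different ways. Esam, an adhesion molecule, rose by 1.84 ± 0.22 with FGF2 and fell by 0.98 ± 0.22 with U0126 against FGF2, the same order as Hes1 and Jag1. The receptor Kdr fell by 1.72 ± 0.34 with FGF2, and the cadherin Cdh5, between 25.4 and 74.2 on all arrays, fell by 0.96 ± 0.29 with U0126 against FGF2. Pecam1 was at most 1.6 on every array.

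The oligodendrocyte lineage sum, with 4 of 8 measured markers above the filter, also had its highest values with FGF2. It was 4140 to 4218 with vehicle, 5257 to 5484 with FGF2, 3746 to 3872 with U0126 and 4706 to 5055 with SB202190. Its transcription factor Olig1 rose by 0.91 ± 0.06 with FGF2 and fell by 0.49 ± 0.06 with U0126 against FGF2, while the myelin enzyme Cnp fell by 0.30 ± 0.06 with FGF2. The lineage's markers thus did not move together. The neuron sum, with 6 of 10 above the filter, was 2296 to 2322 with vehicle, 2416 to 2532 with FGF2, 1909 to 1925 with U0126 and 2652 to 2674 with SB202190. Its markers did not move together either: 3 were called higher and 1 lower with FGF2, beside 18.9% and 19.0% of all genes. Stmn2, the largest part of the sum, was at 1534 and 1557 with vehicle and 1702 and 1800 with FGF2. Map2 was at 583 and 565 with vehicle and 473 and 466 with FGF2. The ependymal sum, with all 7 above the filter, was highest with vehicle, at 6357 to 6590, against 3605 to 4486 with FGF2, 4263 to 5456 with U0126 and 3610 to 4352 with SB202190. Much of this sum and of its spread is Ttr, at 2888 and 2041 with FGF2 and 3140 and 1900 with U0126. Ttr was not called with FGF2 (-0.15 ± 0.20). Of the 7 markers 6 were called lower with FGF2, beside 19.0% of all genes, and 4 higher with U0126 against FGF2, beside 11.6%. The meningeal fibroblast sum, also with all 7 markers above the filter, was 11527 to 11708 with vehicle and 6183 to 6593 with FGF2. It was 5955 to 6039 with U0126 and 5341 to 6112 with SB202190. The pericyte and smooth muscle sum, with 5 of 8 markers above the filter, was 12730 to 13287 with vehicle and 12165 to 13511 with FGF2. It was highest with U0126, at 14809 to 14890, and was 10606 to 11610 with SB202190. The microglia sum, with 3 of 9 above the filter, was 150 to 195 with vehicle and 141 to 168 with FGF2. It was 100 to 165 with U0126 and 114 to 123 with SB202190. The part of these cell types in the Notch pathway results was not tested.

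U0126 with FGF2 against FGF2 alone asks which of these levels move when MEK is inhibited in the presence of the growth factor. Hes1, Jag1, Notch1 and Notch2 were lower and Hes5 was higher. These 5 of 9 genes, 1 higher and 4 lower, stand beside 22.1% of all genes tested that were called, 11.6% higher and 10.5% lower, and the median change was -0.36, against 0.03 for all genes. Without Dll1 and Hes5 they were 4 of 7, all lower, with a median of -0.38. The comparison shares the FGF2 arrays with the one before, so the values are given side by side and no share of reversal is computed.

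Hes1 had signals of 208 and 214 with U0126, between those of vehicle and of FGF2. The change against FGF2 was -0.61 ± 0.11 (adjusted p = 0.00110), and against vehicle Hes1 was still higher by 0.91 ± 0.11 (adjusted p = 2.62e-05). Jag1 followed the same order, at 382 and 421, with -0.53 ± 0.10 against FGF2 (adjusted p = 0.00265) and 0.75 ± 0.10 against vehicle (adjusted p = 1.03e-04). Both genes thus lay between vehicle and FGF2 and apart from each. The call of Jag1 against FGF2 was lost with the mean of its probe sets (-0.39, adjusted p = 0.144). Against vehicle 4 of 9 genes were called with U0126, 2 higher and 2 lower, beside 31.7% of all genes tested, 16.7% higher and 15% lower.

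Notch2 went lower still than with FGF2, to 404 and 345, which was -0.30 ± 0.10 against FGF2 (adjusted p = 0.0364) and -0.91 ± 0.10 against vehicle (adjusted p = 1.03e-05). Notch1 was at 218 and 241, inside the vehicle range, and -0.38 ± 0.12 against FGF2 (adjusted p = 0.0325). Neither receptor call against FGF2 was firm. That of Notch1 was lost when either FGF2 array or either U0126 array was left out, with changes of -0.47 to -0.29, and with the mean of its probe sets (-0.07, adjusted p = 0.744). That of Notch2 was lost without FGF2 replicate 1 (-0.33), FGF2 replicate 2 (-0.28) or U0126 replicate 2 (-0.19), and with the mean of its probe sets (-0.18, adjusted p = 0.390).

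Hes5 rose to 20.9 and 19.1, from FGF2 signals of 5.88 and 2.74 that lay under the filter's, with a change of 1.93 ± 0.57 (adjusted p = 0.0277). The call was lost without FGF2 replicate 2 (1.56, adjusted p = 0.141), U0126 replicate 1 (1.94, adjusted p = 0.101) or U0126 replicate 2 (1.90, adjusted p = 0.104), and the change was 0.86 at a pseudocount of 16. Dll1, at 18.8 and 9.91, had a change of 1.45 ± 0.55 in the same direction that did not pass (adjusted p = 0.0762). Hey1 was at 301 and 305, below both FGF2 arrays, yet its change of -0.19 ± 0.10 did not pass (adjusted p = 0.204). Against vehicle Hey1 was lower by -0.55 ± 0.10 (adjusted p = 8.29e-04). Nrarp stood at 26.9 and 30.6, its lowest group, and the change of -0.58 ± 0.27 against FGF2 did not pass (adjusted p = 0.149). Dll3 gave 46.3 and 12.8, a spread wider than any difference between its group means, and against vehicle its change of -0.64 ± 0.45 passed only without U0126 replicate 1 (-1.43, adjusted p = 0.0271).

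Genes that report ERK activity stayed mostly high with U0126. Dusp6, a phosphatase that shuts off ERK and a target of its signalling, averaged 258 with vehicle, 1225 with FGF2, 914 with U0126 and 1595 with SB202190. It fell by 0.43 ± 0.07 on the log2 scale with U0126 (adjusted p = 0.00101). The feedback inhibitor Spry4 and the transcription factor Etv5 had changes of -0.07 ± 0.21 and -0.14 ± 0.08 that did not pass. Of 10 ERK feedback genes tested, 4 were lower with U0126 than with FGF2 beside 10.5% of all genes tested. Against vehicle 9 were higher and 1 was lower, beside 16.7% and 15% of all genes.

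SB202190 with FGF2 against FGF2 alone asks the same of p38. Notch1 and Hey1 were called lower and none of the 9 genes was called higher, so 2 of 9 stood beside 3.02% of all genes tested, 1.32% higher and 1.7% lower. The median change was -0.27, against -0.0048 for all genes, and without Dll1 and Hes5 2 of 7 were called with a median of -0.36. Over all genes the number of calls fell from 398 to 83 and 82 without FGF2 replicates 1 and 2, and to 299 and 97 without SB202190 replicates 1 and 2. Of the 9 genes, 6 had an unadjusted p under 0.05 in limma, beside 2239 of all 13174 genes tested. After adjustment 2 of the 9 passed, beside 398 of all.

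Hey1 had signals of 252 and 232, the lowest of its groups, and changes of -0.50 ± 0.10 against FGF2 (adjusted p = 0.0162) and -0.87 ± 0.10 against vehicle (adjusted p = 1.56e-05). The call against FGF2 was lost without FGF2 replicate 1 (-0.39, adjusted p = 0.165) or SB202190 replicate 2 (-0.44, adjusted p = 0.160). Notch1 was at 212 and 203, below both vehicle arrays. Its change of -0.51 ± 0.12 against FGF2 (adjusted p = 0.0343) was lost when any of the 4 arrays compared was left out, with values of -0.60 to -0.42, and with the mean of its probe sets (-0.18, adjusted p = 0.549).

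Hes1 was at 241 and 260, lower than on both FGF2 arrays, and its change of -0.36 ± 0.11 did not pass (adjusted p = 0.0922, 95% interval -0.58 to -0.13). Jag1 was at 484 and 470, with -0.27 ± 0.10 (adjusted p = 0.195, 95% interval -0.49 to -0.05). Both were higher than with vehicle, by 1.16 ± 0.11 and 1.01 ± 0.10, in a comparison with 4 of 9 genes called, 2 higher and 2 lower, beside 35.8% of all genes tested, 18% higher and 17.8% lower. Notch2 was at 445 and 480, overlapping its FGF2 arrays, with a change of 0.01 ± 0.10 (95% interval -0.20 to 0.22). It was lower than with vehicle by -0.60 ± 0.10 (adjusted p = 2.64e-04), a call lost with the mean of its probe sets (-0.12, adjusted p = 0.521).

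Dll1 and Hes5 had the highest changes against FGF2, and neither passed. Dll1 was at 22.5 and 24.6, a change of 2.12 ± 0.55 (adjusted p = 0.0556). Hes5 was at 22.9 and 27.5, a change of 2.22 ± 0.57 (adjusted p = 0.0556), which passed without vehicle replicate 1 (2.22, adjusted p = 0.0380). At a pseudocount of 16 the changes were 0.98 for Dll1 and 1.05 for Hes5. Both stood above every FGF2 array and reached at least the vehicle means, at signals close to the filter. Dll3, at 19.3 and 26.1, and Nrarp, at 32.5 and 40.4, did not pass, with -0.50 ± 0.45 and -0.27 ± 0.27.

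Hey2, a Hey repressor, missed the filter, and its brightest arrays were those with vehicle, at 43.1 and 22.6. It was at 14.2 and 10.3 with FGF2, 18.0 and 12.8 with U0126, and 3.25 and 1.98 with SB202190. In a fit of all 18194 genes with no filter it was lower with SB202190 than with vehicle by -2.71 ± 0.53 (adjusted p = 0.00249), and by -1.25 (adjusted p = 0.00330) at a pseudocount of 16, with both SB202190 arrays far under the filter's signal of 12.4. Its change of -1.09 ± 0.53 with FGF2 did not pass (adjusted p = 0.169), nor did that of -1.62 ± 0.53 between SB202190 and FGF2 (adjusted p = 0.176). With U0126 it was higher than with SB202190 by 1.95 ± 0.53 (adjusted p = 0.0292), a call lost at a pseudocount of 16 (0.76, adjusted p = 0.0624).

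The inhibitors were also set against each other. Notch2 was lower with U0126 than with SB202190 by -0.31 ± 0.10 (adjusted p = 0.0312), and Hey1 was higher by 0.31 ± 0.10 (adjusted p = 0.0381). These 2 of 9 stood beside 22.7% of all genes tested, 12.4% higher and 10.3% lower with U0126. The call of Hey1 was lost when any of the 4 arrays compared was left out (0.25 to 0.38), and that of Notch2 without U0126 replicate 2 (-0.20), SB202190 replicate 1 (-0.37) or SB202190 replicate 2 (-0.25). For Hes1 the difference was -0.26 ± 0.11 (adjusted p = 0.101, 95% interval -0.49 to -0.03), and for Jag1 it was -0.26 ± 0.10 (adjusted p = 0.0936, 95% interval -0.48 to -0.03). The Jag1 difference passed when vehicle replicate 1 (adjusted p = 0.0456) or vehicle replicate 2 (adjusted p = 0.0438) was left out. For Hes5 the interval ran from -1.53 to 0.93, too wide to rank the inhibitors.

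The order of the 4 groups can be read gene by gene. Hes1 and Jag1 rose from vehicle through U0126 and SB202190 to FGF2, where the step from vehicle was called and neither of the next steps was. Notch2 was lowest with U0126, nearly level with FGF2 and SB202190, and highest with vehicle, and the steps on both sides of that level pair were called. Hey1 rose from SB202190 through U0126 and FGF2 to vehicle, and the step from U0126 to FGF2 was the only one not called. Notch1 was highest with FGF2, and its other groups did not differ beyond the test.

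Of the 10 genes 5 had more than 1 probe set, and the extra ones did not always follow. The second Jag1 probe set, 1421106_at, had signals of 23.6 and 21.8 with vehicle and 41.4 and 56.3 with FGF2, a change of 1.23 (adjusted p = 0.00303) close to that of the first. With SB202190 it was at 54.9 and 56.0, no lower than with FGF2. The third, 1421105_at, overlapped between the groups, at 29.8 and 18.4 with vehicle and 37.0 and 22.4 with FGF2, and its change of 0.49 did not pass (adjusted p = 0.359). The second Notch1 probe set, 1418633_at, went against the first, with 95.2 and 91.3 for vehicle and 75.7 and 81.4 for FGF2 and a change of -0.17 that did not pass (adjusted p = 0.483). Against FGF2 it gave 0.24 with U0126 (adjusted p = 0.384) and 0.15 with SB202190 (adjusted p = 0.751). Neither passed, and the first was called lower in both. The second Notch2 probe set, 1451889_at, above 57.2% of the probe sets by mean signal, gave -0.21 with FGF2 against vehicle, which did not pass. With SB202190 it gave 0.57 against FGF2 (adjusted p = 0.352) and 0.36 against vehicle (adjusted p = 0.363). Neither passed, and the first probe set had 0.01 and -0.60. The second Nrarp probe set, 1417986_at, fell with U0126 against vehicle by 1.63 on the log2 scale (adjusted p = 0.0398), where the brighter one had -0.21. The second Hes5 probe set was below the filter, between 0.62 and 6.66 on all arrays.

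**Figure D3:**
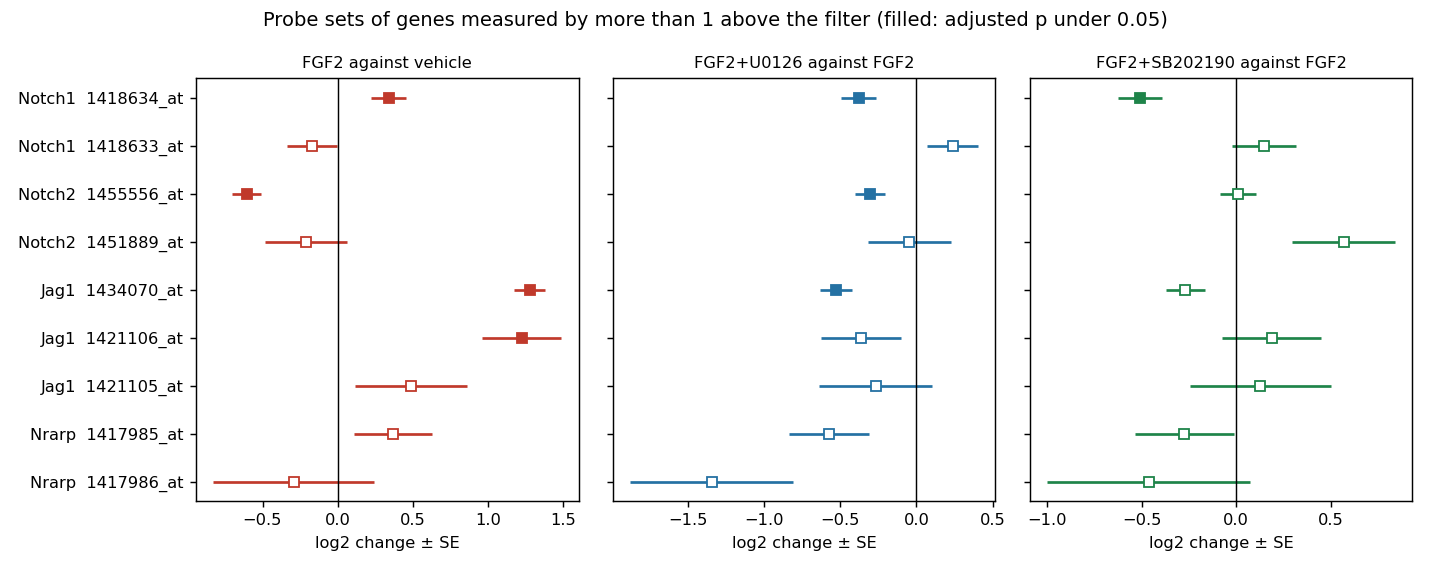
Log2 changes with SE of each probe set above the filter for the 4 genes that had more than 1, in 3 comparisons with separate x axes; filled squares had an adjusted p under 0.05. The Jag1 probe sets 1434070_at and 1421106_at are called with FGF2 and 1421105_at is not, and the 2 Notch1 probe sets lie on opposite sides of 0.

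The rest of the pathway was described with lists of 71 other genes, of which 65 had a probe set and 53 passed the filter. With FGF2 4 were called higher and 13 lower, 32.1% of the list beside 37.9% of all genes, and the list's median was -0.08. With U0126 against FGF2 8 were higher and 8 lower, 30.2% beside 22.1%, with a median of 0.03. With SB202190 against FGF2 1 was higher and none was lower, 1.89% beside 3.02%, with a median of 0.02.

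In the nuclear complex, Rbpj, the DNA-binding partner of cleaved Notch, had signals of 525 and 516 with vehicle, 696 and 718 with FGF2, 503 and 498 with U0126, and 759 and 791 with SB202190. It was high on all arrays with FGF2 unless U0126 was added. The change was 0.41 ± 0.07 with FGF2 (adjusted p = 4.66e-04) and -0.49 ± 0.07 with U0126 against FGF2 (adjusted p = 3.10e-04), while that with SB202190, 0.13 ± 0.07, did not pass. The deacetylase Hdac2 rose by 0.55 ± 0.07 with FGF2, and Hdac1 fell by 0.39 ± 0.07 with U0126 against FGF2. In this list of 16 genes tested, 3 rose and 4 fell with FGF2, beside 18.9% and 19.0% of all genes, and 3 rose and 5 fell with U0126 against FGF2, beside 11.6% and 10.5%. Tle3, a Groucho corepressor recruited by Hes proteins, was at 430 and 414 with FGF2 and at 251 and 248 with U0126, a change of -0.77 ± 0.09 that was lost with the mean of its probe sets (-0.32, adjusted p = 0.210).

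Among trafficking and ubiquitin genes 3 of 14 fell with FGF2 and none rose, beside 19.0% and 18.9% of all genes. Numb, an inhibitor that directs Notch to endosomes, was at 320 and 307 with vehicle and at 191 and 177 with FGF2, a change of -0.75 ± 0.11 (adjusted p = 9.88e-05). Among 12 receptor processing genes 4 fell with FGF2, beside the same 19.0%, and 2 rose with U0126 against FGF2, beside 11.6%. They include Aph1b, a subunit of the gamma-secretase that cuts Notch, with -0.68 after FGF2, a call lost with the mean of its probe sets (-0.35, adjusted p = 0.0848). Of 7 other receptors and ligands 1 fell with FGF2, again beside 19.0% of all genes: Notch3 at -0.66 ± 0.21. That call was lost without vehicle replicate 1 (-0.52) or FGF2 replicate 2 (-0.52), and with no filter (-0.66, adjusted p = 0.0504). It was also lost with the mean of its probe sets (-0.45, adjusted p = 0.266). Without probe sets whose names end in _x_at or _s_at the change was -0.23 (adjusted p = 0.755).

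Other Hes and Hey relatives were mostly dim, with 4 of 7 above the filter. Bhlhe40, a stress-responsive repressor, was at 447 and 429 with FGF2 and at 713 and 730 with U0126, a change of 0.70 ± 0.08 (adjusted p = 4.81e-05). Of 9 proneural and neuronal lineage genes, which Hes proteins repress in progenitors, 8 had a probe set and none passed the filter. Their highest signal on any array was 20.0, for Neurod4.

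**Figure D4:**
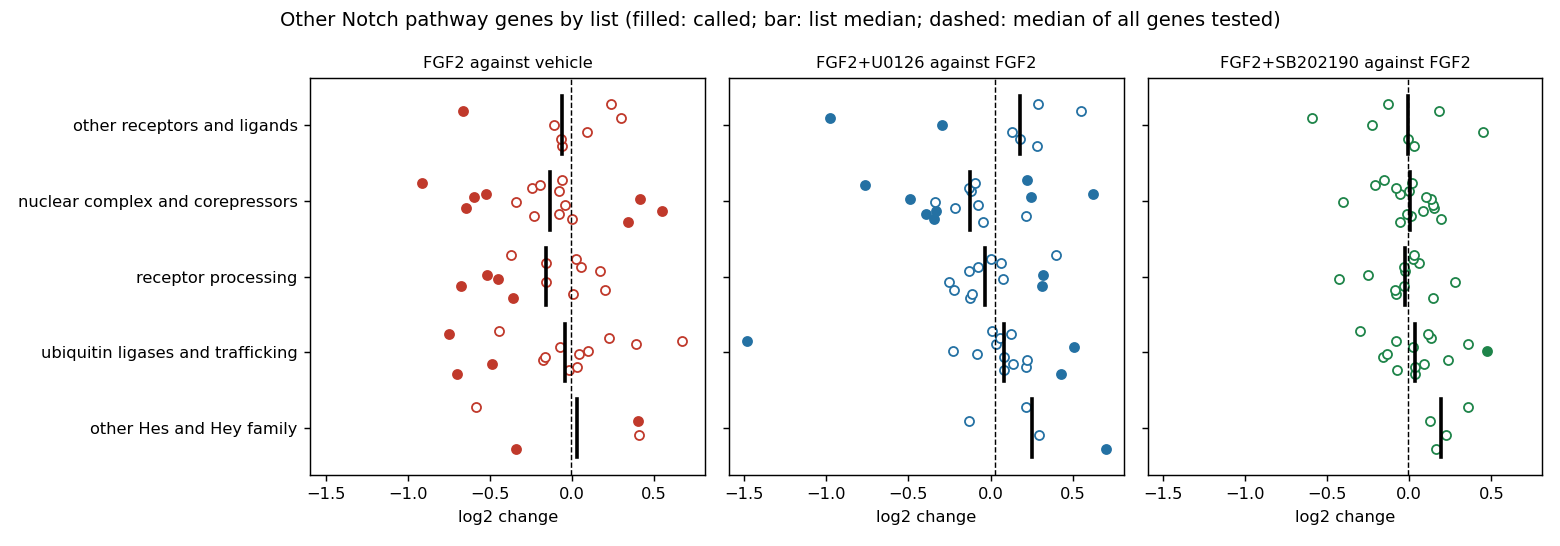
Log2 changes of the 53 other Notch pathway genes tested, by list, in 3 comparisons; filled points were called, bars are list medians and the dashed line is the median of all genes tested. Called genes lie on both sides of 0 in the nuclear list, and 1 point is filled with SB202190.

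The genes most alike in pattern were taken as those with the highest Pearson r of quantile normalized log2 values over the 8 arrays, which share 4 groups. Hes1 and Jag1 correlated with each other at 0.973. For Hes1 the 3 highest were Tbx3 (0.996), Denr (0.996) and Igfbp3 (0.995), and for Jag1 Lsm8 (0.998), Hnrnpdl (0.993) and Mosmo (0.991). Notch2 was most like Ctnnb1 (0.989), Chm (0.983) and Zfp503 (0.981). The deposited signal of Ctnnb1, before quantile normalization, did not fall with FGF2 as that of Notch2 did. Its means were 5444 with vehicle, 5672 with FGF2, 5010 with U0126 and 5460 with SB202190. Hey1 was most like Fam114a1 (0.986), Fgfr2 (0.972) and Col8a1 (0.962). The dimmer or noisier genes had lower best values, with Cbs for Notch1 (0.952), Svop for Dll1 (0.958), Eme2 for Hes5 (0.958), Gm26844 for Dll3 (0.940) and Mndal for Nrarp (0.966). With 8 arrays in 4 groups and 13174 genes to choose from, high values are easily reached, and these are descriptions only.

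**Figure D5:**
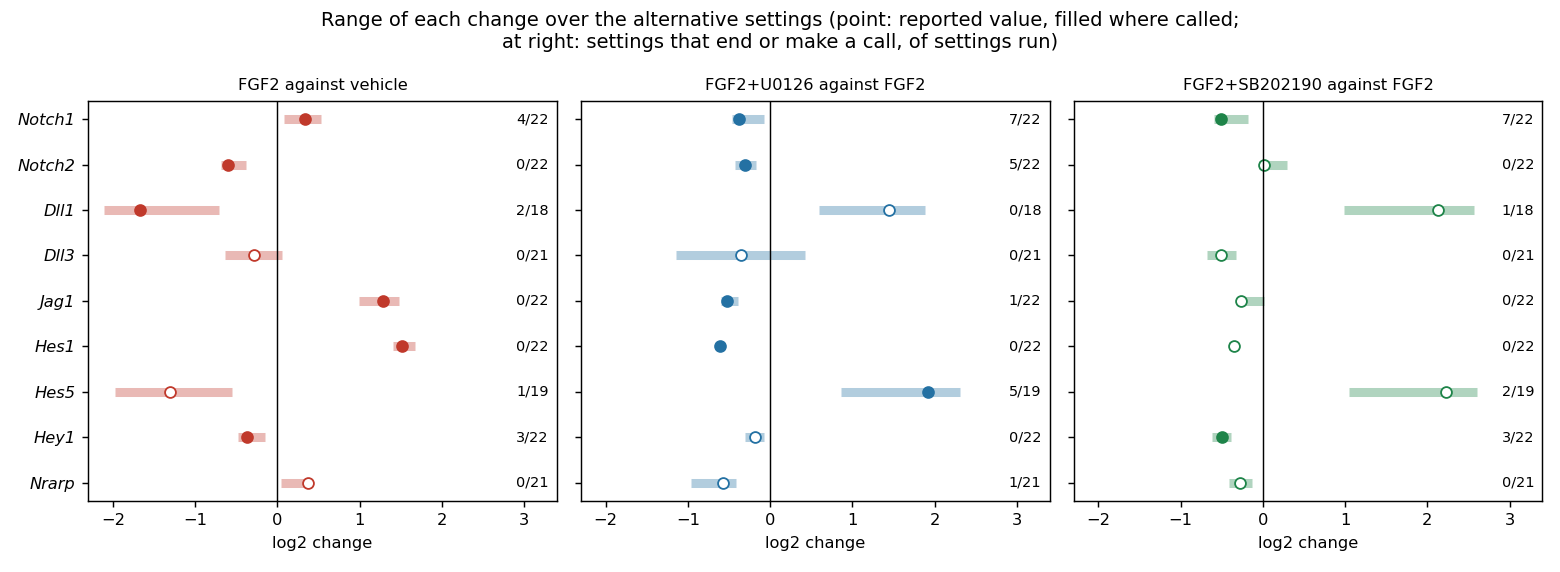
Range of each gene's log2 change over the alternative settings (bars), with the reported value as a point, filled where called; the figures at the right of each panel give how many settings ended or made a call, of those run. The calls of Hes1, Jag1 and Notch2 with FGF2 and of Hes1 with U0126 were ended by 0 of 22 settings.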

How the data were processed

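Signal was measured in mouse cerebral cortex RNA on 8 arrays. The authors' deposited table holds linear intensity values for 45101 probe sets, made by an algorithm not given in the sources used here. Each array's mean was 150.001 after 2% of values had been trimmed at each end, so the authors had scaled the arrays alike. Detection calls played no part. Values were taken to log2(value + 1.77), the 10th percentile of all values, and quantile normalized. On this scale the changes of low genes are understated. Genes were named from the 34958 probe sets with 1 symbol (932 had several and 9211 none), with symbols updated through RefSeq, and represented by the probe set with the highest mean. Genes below the 40th percentile were left out. Changes came from limma 3.58.1 in R 4.3.3, all 8 arrays in 1 fit, its variance prior following intensity (degrees of freedom 4 residual, 8.99 prior), and two-sided, with Benjamini-Hochberg adjustment within each of 6 comparisons. Other probe sets were fitted among 23924 probe sets, and Hey2 with no filter. The number of arrays limits the precision.

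Text names all 10 genes, up to 4 called genes with the smallest p per pathway list and comparison, the 3 most alike genes per member, and Dusp6, Spry4 and Etv5, of which some are given as examples. The members and lists were chosen with earlier results of these data known. Same-numbered samples did not deviate together (correlations of -0.026 to 0.034), so the numbers do not pair them. The alternatives were other normalizations, pseudocounts, filters, priors, weights, probe set rules and thresholds, a replicate block, and leaving out each array. Counts without Dll1 and Hes5, and Hey2 at a pseudocount of 16, were added after seeing the data. Promoter windows were searched with Python 3.11.15, and protein sequences were not used here.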

Additional observations from a re-analysis of the deposited data

How the results depend on the processing

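Over 18 to 22 alternatives a gene (fewer for dim genes, which fell below some filters), 1057 of 1134 recomputed changes of the Notch pathway genes kept their direction and their side of the threshold, 51 lost a call, 8 gained one, and 18 uncalled ones changed sign. The 1134 include fits that left out an array of neither group compared, and uncalled changes that stayed uncalled. Their total is thus no measure of how firm the calls are. Hes1, Jag1 and Notch2 with FGF2 held under every alternative, at 1.41 to 1.68, 1.00 to 1.47 and -0.69 to -0.38. Without an intensity trend 3 genes were called for U0126 against FGF2, and 0 for SB202190 against FGF2 and between the inhibitors, where limma gave 5 and 3 with an unadjusted p under 0.05. For SB202190 against FGF2 it then called 0 of all 13174 genes (1819 with an unadjusted p under 0.05), in place of 398, and 1619 in place of 2916 for U0126 against FGF2 and 1735 in place of 2986 between the inhibitors. With the mean of probe sets these were 170, 1782 and 1783, and median centring gave 235 for SB202190 against FGF2. For U0126 against FGF2 1849 and 1782 were called without FGF2 replicates 1 and 2, and between the inhibitors 1805 without SB202190 replicate 2. Of the Notch pathway genes, with the mean of probe sets 1 was called in each of these 3 comparisons. Median centring left 1 for SB202190 against FGF2 and 1 between the inhibitors, where it called 2617 of all 13178 genes. Array weights gave 4 for SB202190 against FGF2, beside 539 of all 13174 genes. Only the arrays compared gave 0 between the inhibitors (4 with an unadjusted p under 0.05). In that fit 2721 of all genes were called between the inhibitors, and 4393 had an unadjusted p under 0.05 in limma. At an adjusted p under 0.01, 3 were called for FGF2 against vehicle, 2 for U0126 against FGF2, and 0 for SB202190 against FGF2 and between the inhibitors. The share of all genes at that threshold was not counted. Leaving out 1 array gave 4 to 6 for FGF2 against vehicle, 2 to 5 for U0126 and 0 to 3 for SB202190 against FGF2, 4 to 5 for each inhibitor against vehicle, and 0 to 3 between the inhibitors. A lone array left in a group was assumed to vary like the others. With 1 array left out, 8 or 9 of the genes were tested, and not always the same ones. Dll1 was tested in 5 of these fits and Hes5 in 7, so the ranges mix different sets of genes. The counts against vehicle are not set beside those of all genes here, so they do not single out the pathway. With the replicate block the counts of 6, 5, 2, 4, 4 and 2 called genes stayed as they were. All 54 changes, called and uncalled together, kept their side of the threshold. Under median centring the median of all genes for FGF2 against vehicle was 0.16, with 4018 genes higher and 1479 lower in place of 2489 and 2502. For U0126 against vehicle it was 0.19, with 4030 higher and 1014 lower in place of 2196 and 1981, and for SB202190 against vehicle 0.18, with 4059 and 1437 in place of 2377 and 2345. Of 29 called changes of the other pathway genes, 23 were lost or reversed in at least 1 alternative, 13 of them on leaving out 1 array. Averaging probe sets, Ncstn reversed to 0.32 with FGF2 and to -0.34 with U0126 against FGF2, and Snw1 to -0.087 with U0126 against FGF2. Where a call changed, the cause was not tested. Signals near the filter limit what Dll1, Hes5 and Hey2 can show.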
